A study of Mus musculus with 15 samples.

Results

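Heat shock protein genes, 10 in number, were followed in the cecum of mice after antibiotic-induced microbiome depletion (AIMD). The members were the 10 rows of the deposited expression table named Hspb1, Hspa1a, Hspa1b, Hspa8, Hsph1, Dnajb1, Hsp90aa1, Hsp90ab1, Hspd1 and Hspe1, out of 45804 rows with a unique gene name, and all 10 were present. The AIMD group held 7 wild-type C57BL/6 mice that had received ampicillin, vancomycin, neomycin, metronidazole and amphotericin B by oral gavage for 30 days, and the vehicle group held 8 such mice gavaged with water. The labels give an age of 20 weeks for the mice of either group. Each library was made from the poly-A RNA of 1 emptied cecum, so it is a bulk measurement of the whole cecal wall, in which fewer cells of a type and less RNA per cell cannot be told apart. Values are FPKM, in which a gene's reads are divided by the length of its transcripts and by a factor that scales its library to the others. The question was whether these genes differed between AIMD and vehicle mice. Effects of the microbiome's depletion and direct effects of the drugs cannot be told apart in this design.

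Heat shock proteins are molecular chaperones: they hold unfolded proteins, keep them from aggregating and help them fold. In the cytosol, J-domain proteins (HSP40) pass clients to HSP70, nucleotide exchange factors such as HSP110 reset HSP70, and HSP90 takes over late-folding clients such as kinases and steroid receptors. HSP60 and HSP10 form the folding chamber of the mitochondrial matrix, and small heat shock proteins bind unfolded clients without using ATP. Heat shock factor 1 (HSF1) raises many of these genes together under heat or other protein stress, and in the intestinal epithelium inducible heat shock proteins are known as cytoprotective and as responsive to luminal bacteria.

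The 10 genes did not move together. Dnajb1 was called higher in AIMD mice and Hspa1a was called lower, and the other 8 did not pass the test (limma on log2(FPKM + 0.5), Benjamini–Hochberg adjusted over 11971 genes, threshold 0.05). All 10 members passed the filter on low values, which asked for 0.5 FPKM or more in 7 or more mice. Over all 11971 genes tested, 19.4% were called higher and 16.6% lower, so 1 call in each direction among 10 genes is no more than the background share. The median log2 fold change, AIMD minus vehicle, was -0.16 for the 10 members and 0.0066 for all genes tested. In none of the 10 were the groups free of overlap, against 8.56% of all genes tested.

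Reads recovered from the FPKM numbered 8665457 to 18082591 per AIMD mouse and 4366153 to 14390816 per vehicle mouse. Vehicle replicate 8 stood apart: it had the fewest reads and the highest summed level of smooth-muscle markers, so calls of the members and of the other chaperone genes that changed without it are named below. The share of reads from mitochondrial genes was 4.29% to 10.9% in AIMD mice and 6.93% to 26.2% in vehicle mice, and its part in the results was not tested. The labels do not give the time of sacrifice. On an axis of circadian clock genes, centred within each group, the mice lay in separate clusters, with 3 AIMD mice (replicates 1 to 3) and 4 vehicle mice (replicates 1 to 4) above 0 and 4 AIMD mice and 4 vehicle mice below 0. The epithelial markers Epcam, Vil1 and Cdh1 were among 12 of 12 epithelial markers tested, and their summed FPKM was 6623 to 10416 in AIMD mice and 6033 to 8440 in vehicle mice.

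Per base of transcript, Hsp90ab1 was the highest member, at 158 ± 45.6 FPKM (SD, n = 15, groups pooled). Its lowest mouse, at 91.4, lay above the highest mouse of every other member. Hspd1 at 51.7 ± 12.4, Hspe1 at 46.5 ± 17.1 and Hspa8 at 40.0 ± 10.7 followed and overlapped one another. Dnajb1 at 17.8 ± 3.89, Hsp90aa1 at 10.7 ± 2.43, Hsph1 at 8.19 ± 3.81 and Hspa1b at 7.68 ± 3.39 formed the middle of the order, each overlapping its neighbour. Hspb1 at 2.08 ± 1.84 and Hspa1a at 1.89 ± 0.797 were the lowest. The constitutive members of the HSP70 and HSP90 families, Hspa8 and Hsp90ab1, were thus higher than their inducible relatives in every mouse.

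**Figure D1:**
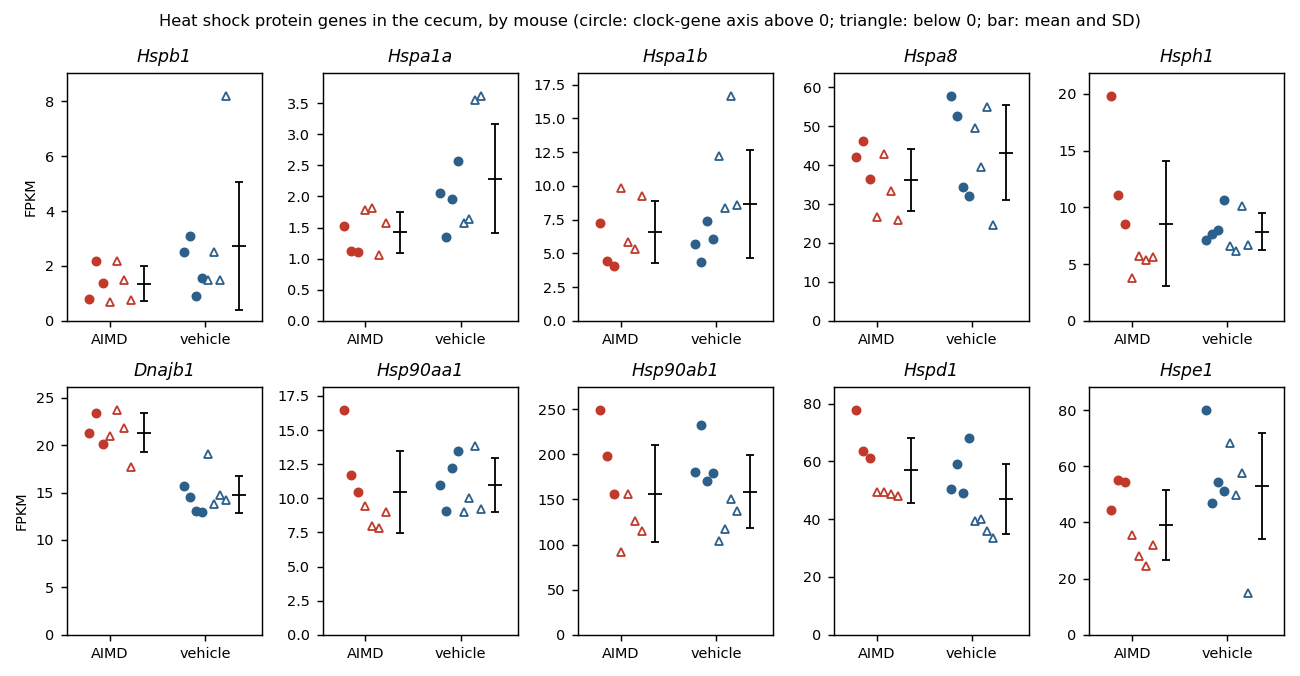
FPKM (vertical axes, each from 0) of the 10 heat shock genes in 7 AIMD mice (red) and 8 vehicle mice (blue); filled circles are mice above 0 on the clock-gene axis, open triangles mice below 0, and the black bars give the mean and SD. Dnajb1 lies higher in AIMD mice with a single vehicle mouse, at 19.1, in their range, Hspb1 has a single high vehicle mouse at 8.20, and Hsp90ab1 and Hspd1 separate circles from triangles within each group.

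Hspa1a and Hspa1b encode the inducible cytosolic HSP70, from neighbouring intronless genes. Hspa1a is at chr17:34969190-34972156 and Hspa1b at chr17:34956436-34959238, on the minus strand (GRCm38, GENCODE M21). The bases before their starts are printed here because they are nearly one sequence, and capitals mark the letters GAANNTTC or TTCNNGAA (N is any base, read on either strand), a simple form of the inverted repeats that heat shock factors bind. The stretches cover bases -130 to -1 before the RefSeq start (GRCm38.p6), chr17:34972157-34972286 for Hspa1a and chr17:34959239-34959368 for Hspa1b, minus strand.
Hspa1a: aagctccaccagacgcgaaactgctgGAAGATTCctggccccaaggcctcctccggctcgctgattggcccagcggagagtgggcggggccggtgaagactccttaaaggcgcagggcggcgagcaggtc
Hspa1b: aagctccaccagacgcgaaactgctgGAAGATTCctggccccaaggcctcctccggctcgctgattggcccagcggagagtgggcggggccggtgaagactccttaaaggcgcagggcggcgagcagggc
They were the same at 129 of 130 bases, and each held 1 match, which began at base -104. Such a match was found within 250 bases before the start in 12.8% of 32817 RefSeq promoters. It describes these letters only.

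Hspa1a was the member called lower. Its FPKM ran from 1.05 to 1.81 in AIMD mice (median 1.52) and from 1.35 to 3.62 in vehicle mice (median 2.01). All 7 AIMD mice lay below the vehicle median, 3 of them below every vehicle mouse, and 5 of 8 vehicle mice lay above every AIMD mouse. Means were 1.42 ± 0.327 (SD, n = 7) and 2.29 ± 0.882 (SD, n = 8). On the log2 scale Hspa1a differed by -0.49 ± 0.18 (SE; limma adjusted p = 0.0405; two-sided exact permutation test, p = 0.0204). The call was a narrow one, since it rested on 24 to 85 reads per mouse and was lost when AIMD replicate 1, 2, 3 or 6 or vehicle replicate 1, 4, 7 or 8 was left out (adjusted p up to 0.0860). It was also lost without the filter on low values (adjusted p = 0.0814) and with an exact rank-sum test (adjusted p = 0.0739), and over all alternatives the adjusted p ran from 0.0180 to 0.181. The direction stayed downward in all of these.

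Hspa1b was more abundant per base than Hspa1a in every mouse, and it was not called. It ran from 4.04 to 9.81 FPKM in AIMD mice (median 5.82) and from 4.35 to 16.7 in vehicle mice (median 7.89), a log2 fold change of -0.34 with a 95% interval from -0.86 to 0.19 (limma adjusted p = 0.307). The groups overlapped, and only vehicle replicates 5 and 7 lay above all AIMD mice. Of the 50-base windows of Hspa1a transcripts, 58.8% also occur in Hspa1b, so 50-base reads from much of these genes cannot be placed in one of them, and the split between the 2 genes is uncertain. The ratio of Hspa1a to Hspa1b within a mouse was 0.171 to 0.311 in AIMD mice and 0.128 to 0.423 in vehicle mice, and its difference was smaller than the spread (log2 -0.27, exact permutation test, p = 0.304, adjusted over 5 ratios 0.507).

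Hspa8 encodes HSC70, the constitutive HSP70 that folds new proteins and strips clathrin coats (chr9:40800984-40810087, plus strand). Its FPKM was 25.9 to 46.1 in AIMD mice (median 36.5) and 24.7 to 57.8 in vehicle mice (median 44.6). The groups overlapped, with 4 vehicle mice above all AIMD mice. The log2 fold change was -0.23 (95% interval -0.63 to 0.17, limma adjusted p = 0.366). The share of the inducible genes against Hspa8 did not pass the test either, with a log2 difference of -0.40 for Hspa1a (exact permutation test, p = 0.297) and -0.13 for Hspa1b (exact permutation test, p = 0.739). Of the windows of 50 bases of Hspa8, 39.4% recur elsewhere, many of them in the pseudogene Gm15459, which limits its level and these ratios.

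Dnajb1 encodes an HSP40 that delivers clients to HSP70 and is itself heat-inducible (chr8:83608193-83612653, plus strand). It was the member that rose. The 7 AIMD mice ran from 17.7 to 23.7 FPKM (median 21.3) and the 8 vehicle mice from 13.0 to 19.1 (median 14.4). Of the AIMD mice, 6 lay above every vehicle mouse, and 7 vehicle mice lay below every AIMD mouse, so the overlap came from AIMD replicate 7 at 17.7 and vehicle replicate 5 at 19.1. Means were 21.3 ± 2.04 (SD, n = 7) and 14.8 ± 1.97 (SD, n = 8), a ratio of 1.44. On the log2 scale Dnajb1 differed by 0.52 ± 0.10 (SE; limma adjusted p = 0.00112; exact permutation test, p = 0.000466). With each mouse left out in turn it stayed between 0.49 and 0.57 and was called each time. Dnajb1 rested on 141 to 865 reads per mouse, and of its windows of 50 bases 0.412% recur elsewhere in the transcriptome.

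Hsph1 encodes HSP110, the nucleotide exchange partner of HSP70 (chr5:149614287-149636376, minus strand). Its level in AIMD mice ran from 3.80 to 19.8 FPKM (median 5.72), and in vehicle mice from 6.19 to 10.6 (median 7.36). AIMD mice thus lay on either side of the vehicle mice: 2 were above all 8 of them and 4 were below all 8. The log2 fold change was -0.05 (95% interval -0.58 to 0.49, limma adjusted p = 0.906), and the SD of log2 values was 0.75 in AIMD mice and 0.27 in vehicle mice. Among all genes tested these SDs lay at percentile 98.1 and 28.4. The 3 AIMD mice above 0 on the clock-gene axis had the 3 highest AIMD values, 8.49 to 19.8, and the 4 below 0 had 3.80 to 5.72.

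The cytosolic HSP90 genes did not pass the test. Hsp90aa1, the inducible form (chr12:110690605-110702728, minus strand), ran from 7.82 to 16.5 FPKM in AIMD mice (median 9.47) and from 8.97 to 13.8 in vehicle mice (median 10.5). Its log2 fold change was -0.09 (95% interval -0.42 to 0.23, limma adjusted p = 0.667). Hsp90ab1, the constitutive form (chr17:45567775-45573271, minus strand), ran from 91.4 to 250 FPKM in AIMD mice (median 156) and from 104 to 232 in vehicle mice (median 161). For Hsp90ab1 the log2 fold change was -0.05 (95% interval -0.49 to 0.39, limma adjusted p = 0.861). Neither gene had groups that stood apart, and the sign of Hsp90ab1 turned to 0.05 after quantile normalization. The ratio of Hsp90aa1 to Hsp90ab1 was 0.0511 to 0.104 in AIMD mice and 0.0390 to 0.0921 in vehicle mice, a log2 difference of -0.04 (exact permutation test, p = 0.823). Hsp90aa1 and this ratio are uncertain, since 47.5% of the windows of 50 bases of Hsp90aa1 recur elsewhere, mostly in the pseudogenes Gm12346 and Gm5844, against 3.44% of those of Hsp90ab1.

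Hspd1 (HSP60) and Hspe1 (HSP10) encode the barrel and the lid of the mitochondrial chaperonin. They lie head to head on chromosome 1, Hspd1 on the minus strand at chr1:55077835-55088243 and Hspe1 on the plus strand at chr1:55088132-55091307, so that they overlap at their 5′ ends. A stretch between the RefSeq start of Hspe1 and 1 of the 2 RefSeq starts of Hspd1 is printed because the members share it, at bases -96 to -67 before Hspe1 (chr1:55088052-55088081, plus strand, GRCm38.p6), with the same letters in capitals.
Hspe1: cggtccgTTCTAGAACCTTCCGGAAggccc
It held 3 overlapping matches that began at bases -89, -84 and -79, and at least 3 matches were found in 0.134% of RefSeq promoters. Again this describes the letters.

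These partners had fold changes of opposite sign, neither of which passed the test. Hspd1 ran from 48.2 to 77.9 FPKM in AIMD mice (median 49.5) and from 33.6 to 68.1 in vehicle mice (median 44.6). All 7 AIMD mice were above the vehicle median and 4 vehicle mice were below every AIMD mouse, with a log2 fold change of 0.29 (95% interval -0.05 to 0.63, limma adjusted p = 0.165). With the clock-gene axis as a covariate the same log2 fold change of 0.29 was called (adjusted p = 0.0188). Hspe1 ran from 24.4 to 55.1 in AIMD mice (median 35.5) and from 15.04 to 80.1 in vehicle mice (median 52.8). Its log2 fold change was -0.37 (95% interval -0.97 to 0.22, limma adjusted p = 0.321). The lowest vehicle value was that of vehicle replicate 8, and without this mouse Hspe1 was called lower in AIMD mice (log2 -0.61, adjusted p = 0.0169).

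Within a mouse, the ratio of Hspd1 to Hspe1 was 1.12 to 2.00 in AIMD mice (median 1.502) and 0.579 to 2.23 in vehicle mice (median 0.857). All 7 AIMD mice lay above the vehicle median, and the highest value of all was that of vehicle replicate 8. The log2 difference was 0.67 (exact permutation test, p = 0.0357) and did not pass the threshold after adjustment over the 5 ratios compared (adjusted p = 0.179). Leaving vehicle replicate 8 out gave 0.85 (exact permutation test, adjusted p = 0.0233). Reads that share sequence bear on either gene, since 42.1% of the windows of 50 bases of Hspd1 and 22.8% of those of Hspe1 recur elsewhere, most of them in the pseudogene Hspd1-ps3 for Hspd1 and in the predicted gene AC117239.2 for Hspe1.

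**Figure D2:**
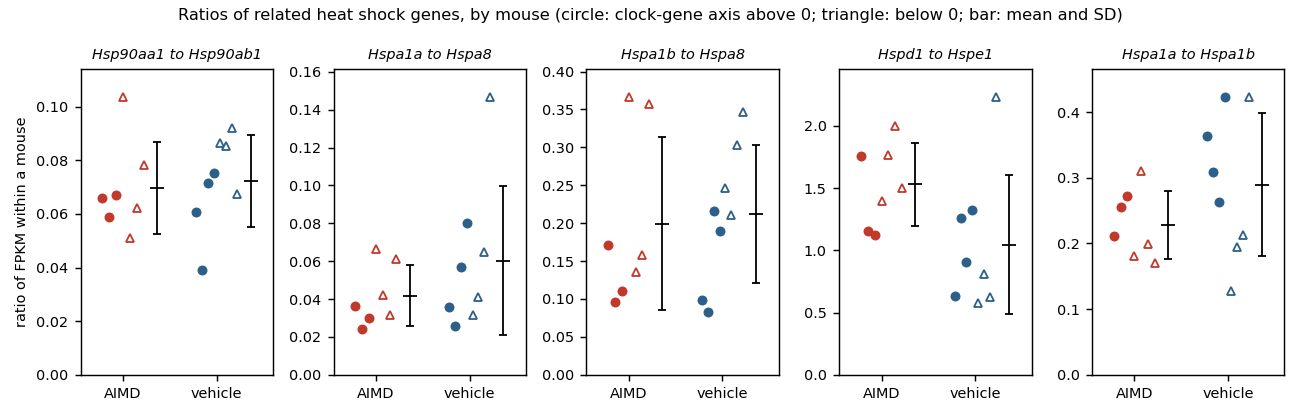
Ratio of FPKM of 5 pairs of related heat shock genes within each mouse (vertical axes, each from 0), AIMD mice in red and vehicle mice in blue; circles and triangles are mice above and below 0 on the clock-gene axis, and bars give the mean and SD. For Hspd1 to Hspe1 the AIMD mice sit between 1.12 and 2.00, and 7 of 8 vehicle mice sit between 0.579 and 1.33, with vehicle replicate 8 at 2.23.

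Hspb1 encodes HSP25, a small heat shock protein that binds unfolded clients and actin filaments and is abundant in muscle (chr5:135887919-135889563, plus strand). Its promoter is shown because it carries more than one of the same letters, at bases -125 to -76 (chr5:135887794-135887843, plus strand, GRCm38.p6).
Hspb1: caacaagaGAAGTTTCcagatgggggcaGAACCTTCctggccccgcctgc
There were 2 matches, beginning at bases -117 and -97, and at least 2 were found in 1.45% of RefSeq promoters. Of the 10 members, 7 had a RefSeq promoter in the table used. Among the remaining ones of these, Hsph1 had 1 match (30 bases at chr5:149636346-149636375, minus strand, the stretch below) and Dnajb1 had 0 in these windows, while the promoters of Hspa8, Hsp90aa1 and Hsp90ab1 were not examined.
Hsph1: gaatctTTCTCGAAggctcgagaagaagga

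Hspb1 was low, at 0.699 to 2.18 FPKM in AIMD mice (median 1.38) and 0.916 to 8.20 in vehicle mice (median 2.04), from 6 to 43 reads per mouse. Of the AIMD mice, 3 were below every vehicle mouse, and 4 vehicle mice were above every AIMD mouse. The log2 fold change was -0.65 (95% interval -1.30 to 0.01, limma adjusted p = 0.114), and without vehicle replicate 8 it was -0.41. Shared sequence limits it too, as 50.1% of its windows of 50 bases recur in another gene, mostly the pseudogene Hsp25-ps1.

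Among other small heat shock genes, 10 were listed, 6 were tested and 4 were called lower in AIMD mice: Hspb8, a partner of the co-chaperone BAG3 (log2 -1.08, limma adjusted p = 0.00994), Hspb6 (log2 -1.05, adjusted p = 0.0164), Hspb2 (log2 -0.99, adjusted p = 0.00331) and Cryab, αB-crystallin (log2 -0.65, adjusted p = 0.0471). Hspb7 (log2 -0.44) and Hspb11 (log2 -0.08) were not called. Depth limits the call of Hspb2, which rested on 3 to 8 reads in AIMD mice and 3 to 22 in vehicle mice. Its FPKM was 0.204 to 0.709 in AIMD mice and 0.692 to 3.56 in vehicle mice. Of all genes tested 16.6% were called lower, and the difference from this share was not tested. The FPKM of Hspb8 was 4.13 to 9.72 in AIMD mice and 5.68 to 45.1 in vehicle mice, with only vehicle replicate 3 within the AIMD range. Without vehicle replicate 8, Cryab was no longer called (adjusted p = 0.0657), while Hspb2, Hspb6 and Hspb8 were. The 4 called genes are known to be expressed in smooth muscle. Of 12 smooth-muscle markers, 4 were called lower, 0 higher and 8 were not called. Their median log2 fold change was -0.83, beside -0.82 for the 6 small heat shock genes tested, Hspb11 among them. The summed FPKM of the 12 markers was 264 to 924 in AIMD mice and 647 to 3676 in vehicle mice, or up to 1677 without vehicle replicate 8. None of the 12 was at 0 in all mice, and their part in the values of Hspb1 and its relatives was not tested.

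**Figure D3:**
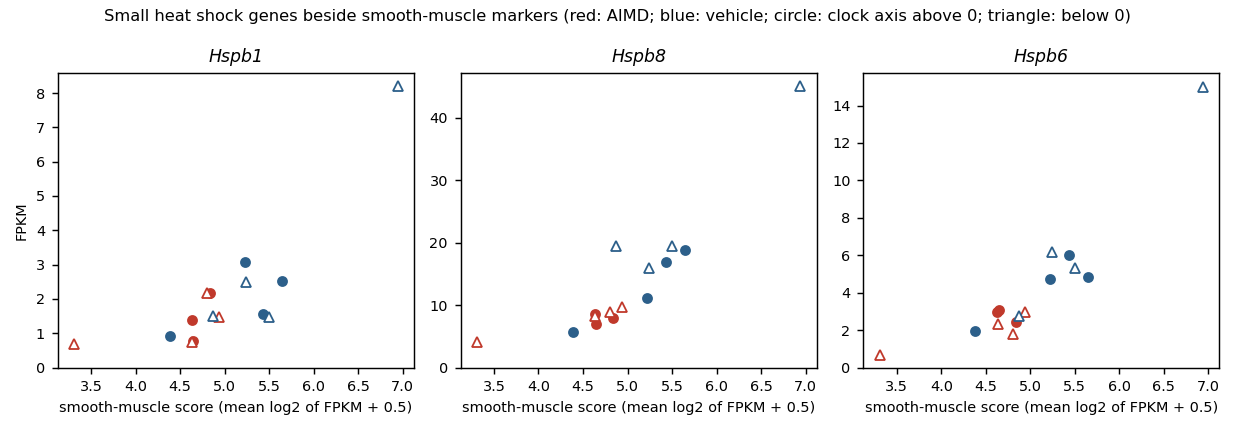
FPKM of Hspb1, Hspb8 and Hspb6 (vertical axes, from 0) against the smooth-muscle score, the mean log2(FPKM + 0.5) of 12 smooth-muscle markers (horizontal axis), in 7 AIMD mice (red) and 8 vehicle mice (blue). Vehicle replicate 8 lies at the upper right of each panel, with a score of 6.94, and the lowest score, 3.31 in AIMD replicate 4, goes with the lowest value of each gene.

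The position of a mouse on the clock-gene axis was set beside the members' values. In a limma model with treatment and the axis, the axis had a coefficient above 0 that passed the threshold for Hsp90ab1 (adjusted p = 0.00540) and Hspd1 (adjusted p = 0.00233), and one below 0 for Hspa1b (adjusted p = 0.0201). Of all genes tested, 13.3% passed with a coefficient above 0 and 9.73% below 0, so that 2 and 1 of 10 members are near the background. Hspd1 was 61.2 to 77.9 FPKM in AIMD mice above 0 on the axis and 48.2 to 49.5 in those below 0, and in vehicle mice it was 49.0 to 68.1 and 33.6 to 40.2. Hspa1b went the other way in vehicle mice, with 4.35 to 7.42 above 0 and 8.37 to 16.7 below 0. Since the axis was taken from the same libraries and replicates 1 to 3 or 4 fall on one side of it, time of day and any other difference between these sets of mice cannot be told apart.

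Within the mice of one side of the axis, an alternative added after the data were seen, the log2 fold change of Dnajb1 was above 0 on either side. It was 0.61 in the 7 mice above 0 (limma adjusted p = 0.0200) and 0.44 in the 8 mice below 0, where it did not pass (adjusted p = 0.0781). For Hspa1a the values were -0.49 and -0.53, neither of which passed (adjusted p = 0.115 and 0.181). Hsph1 changed sign, from 0.55 (adjusted p = 0.168) to -0.47 (adjusted p = 0.109). The test of that difference, a treatment by axis interaction in limma, gave Hsph1 an unadjusted p of 0.00243 and an adjusted p of 1.00. It called 0 of 11971 genes (0.0%), and 393 had an unadjusted p under 0.05, which is 3.28%.

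**Figure D4:**
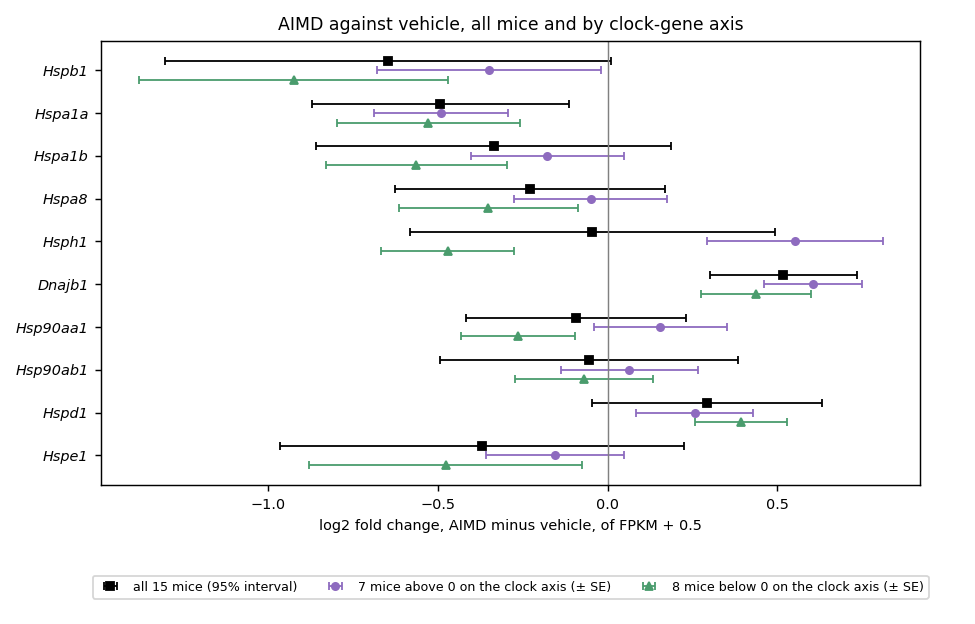
Log2 fold change of FPKM + 0.5, AIMD minus vehicle (horizontal axis), for each heat shock gene: black squares are all 15 mice with the 95% interval, purple circles the 7 mice above 0 on the clock-gene axis and green triangles the 8 mice below 0, with standard errors. The intervals of Dnajb1 (0.30 to 0.73) and Hspa1a (-0.87 to -0.11) exclude 0, and the circle and triangle of Hsph1 lie on either side of 0.

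The members also differed in how evenly mice expressed them. Dnajb1 had the smallest spread, with SDs of log2 values of 0.14 in AIMD mice and 0.17 in vehicle mice, at percentile 9.73 and 6.30 of all genes tested. Hspb1, with 6 to 43 reads per mouse, was at percentile 92.4 and 96.2. Its vehicle replicate 8 had 8.20 FPKM, against 0.916 to 3.09 in the other vehicle mice. Hspa1b, with over 100 reads in every mouse, was at percentile 90.2 and 87.5. Hspe1 was at 89.5 and 94.3. Its vehicle replicate 8 had 15.04 FPKM, against 46.8 to 80.1 in the other vehicle mice. The part of this mouse in these spreads was not tested.

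The heat shock factors were measured beside their targets. Hsf2, a factor active in development and in some stress responses, was lower in AIMD mice: 3.09 to 3.92 FPKM in the 7 AIMD mice and 4.22 to 8.15 in the 8 vehicle mice, with no overlap (log2 -0.72, limma adjusted p = 0.000710). Hsf1, the main heat-responsive factor, had 3.50 ± 1.17 FPKM (SD, n = 7) against 3.19 ± 1.29 (SD, n = 8) and was not called (log2 0.14, adjusted p = 0.665). Hsbp1, which binds HSF1, was not called (log2 -0.20, adjusted p = 0.324), and Hsf3, Hsf4 and Hsf5 were too low to test. Among other genes known to be raised by HSF1, 22 were tested, 2 were called higher and 8 lower, with a median log2 fold change of -0.16. Of all genes tested 19.4% were called higher and 16.6% lower, and the difference from these shares was not tested. Among the lower targets were Dnaja4, a J-domain protein (log2 -1.07, adjusted p = 4.60e-05), Ptges3, the HSP90 co-chaperone p23 (log2 -0.93), and Ubb, a source of ubiquitin (log2 -0.55). Bag3, Ppid, Hspb8 and Cryab were lower too, and they and Ptges3 are also counted in other lists here. Without vehicle replicate 8, Cryab was not called (limma adjusted p = 0.0657). Higher were Hspa4, a relative of HSP110 (log2 0.59, adjusted p = 0.00303), and Ahsa1, which stimulates the ATPase of HSP90 (log2 0.80, adjusted p = 0.0215).

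Dnaja4 and Ptges3 are shown by mouse because they had the smallest adjusted p among these targets. Dnaja4 was 1.37 to 2.71 FPKM in AIMD mice and 3.40 to 5.79 in vehicle mice. Ptges3 was 33.9 to 62.9 in AIMD mice and 59.4 to 129 in vehicle mice. The first had no overlap, and in the second AIMD replicate 4 reached above vehicle replicate 2.

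Families of relatives and partners of the members, which include proteins of the mitochondria and the endoplasmic reticulum, went in both directions. Their counts stand beside 19.4% higher and 16.6% lower of all genes tested. Grpel1, Grpel2, Dnaja3, Hscb, Hspa5, Hyou1 and Dnajb9 are counted again in the mitochondrial or endoplasmic reticulum lists below. Of 20 HSP90 relatives and co-chaperones tested, 3 were called higher (Ahsa1, Fnip2 and Fkbp5, a steroid receptor co-chaperone) and 4 lower (Tomm34, Ptges3, Rpap3 and Ppid). Stip1, which bridges HSP70 and HSP90, was level with the vehicle mice in its mean, 27.8 ± 9.78 (SD, n = 7) against 26.6 ± 7.52 (SD, n = 8), and was not called. Of 12 regulators of HSP70, Grpel2 (log2 0.88, adjusted p = 7.57e-06) and Grpel1 (log2 0.66), exchange factors of the mitochondrial HSP70, were higher and Bag3 (log2 -0.63, adjusted p = 0.00573) was lower. Of 9 other HSP70 and HSP110 proteins tested, Hspa4, Hspa5 and Hyou1 were higher and Hspa13 was lower. Among J-domain proteins, 2 of 12 of type A and B were higher (Dnaja3 and Dnajb9) and 2 lower (Dnaja4 and Dnajb6), and of 27 of type C, 9 were higher, led by Dnajc5 (log2 1.03, adjusted p = 0.000275), Dnajc25, Dnajc13 and Gak, and 2 lower (Dnajc28 and Hscb). Subunits of the cytosolic chaperonin and of prefoldin were mixed as well, with Cct2 (log2 0.76), Cct3 and Vbp1 higher and Cct8 (log2 -0.57) and Pfdn2 (log2 -0.60) lower, of 14 tested. Cct3 and Vbp1 were no longer called without vehicle replicate 8 (adjusted p = 0.0780 and 0.0713).

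Chaperones of the mitochondria and the endoplasmic reticulum were counted in the same way, beside the 19.4% higher and 16.6% lower of all genes tested, and the difference from these shares was not tested. Beside Hspd1 and Hspe1, 14 other mitochondrial chaperones and proteases were tested. Of these, 5 were higher, among them Grpel2, the protease subunit Afg3l2 (log2 1.04, limma adjusted p = 6.09e-05), Clpx (log2 0.56) and Dnaja3 (log2 0.55). Hscb, which serves iron-sulfur cluster assembly, was lower (log2 -0.73). The median log2 fold change of the 14 was 0.34. Hspa9, the mitochondrial HSP70 that works with Hspd1 and Hspe1, was 145 ± 16.9 FPKM (SD, n = 7) against 173 ± 41.8 (SD, n = 8) and was not called (log2 -0.22, adjusted p = 0.327), but without vehicle replicate 8 it was called lower (log2 -0.35, adjusted p = 0.0258). Of 15 chaperones of the endoplasmic reticulum, 6 were higher, among them Hspa5, the HSP70 BiP (log2 0.59, adjusted p = 0.00103), Dnajc3, Hyou1 and Dnajb9, and 1, Pdia6, was lower (log2 -0.63). In all, 121 chaperone genes beside the members were tested, of which 25 were higher and 20 lower, close to the shares over all genes tested, with a median log2 fold change of -0.03. Without vehicle replicate 8 these counts were 23 and 24. The genes called lower only then, chosen after their values were seen apart from Hspa9, were Hspa9, Hsp90b1 (adjusted p = 0.0382), Dnajc15 (adjusted p = 0.0259), Cct5 (adjusted p = 0.0155) and Cct6a (adjusted p = 0.0167).

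**Figure D5:**
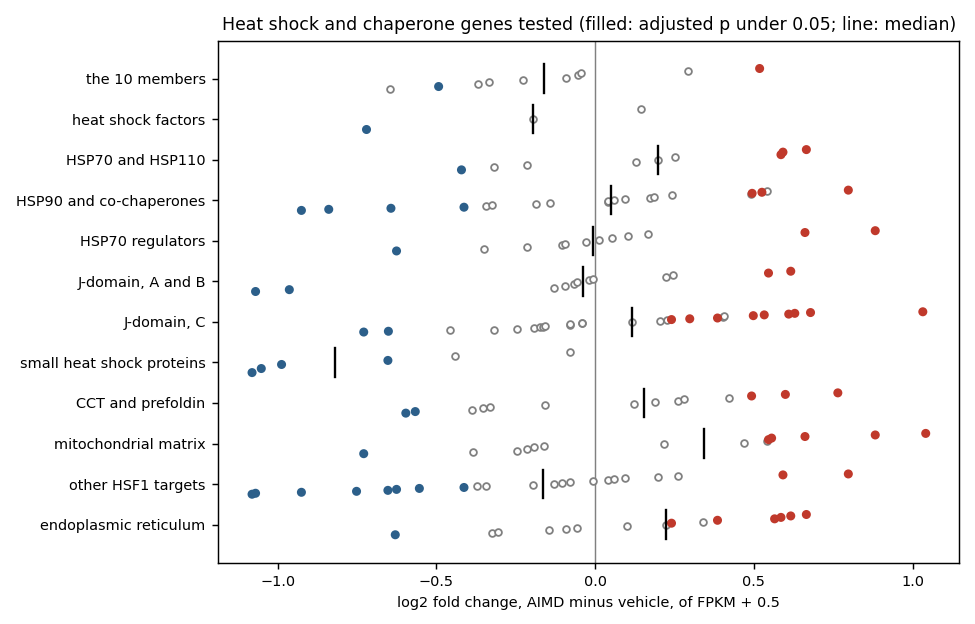
Log2 fold change of FPKM + 0.5, AIMD minus vehicle (horizontal axis), of every tested gene in 12 lists of heat shock and chaperone genes (vertical axis); red and blue points passed the threshold above and below 0, open points did not, and black lines are medians. Small heat shock genes lie below 0 throughout (median -0.82), and the mitochondrial list has a median of 0.34.

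Likeness between genes over the 15 mice was measured as Pearson's r of log2 values centred within groups, as a description, since the mice lie in clusters on the clock-gene axis and share library depth. Genes with predicted names, Gm with a number or ending in Rik, were left out of the ranking. The 5 genes most like Hspa1b were Peli1 (r = 0.94), Kdm3b, Setd1b, Ddx6 and Zc3h7a (each at r = 0.92 or 0.93), none of them a chaperone. For Hspd1 they were Decr2 (r = 0.92), Pla2g3, Thumpd1, Hibadh and Aig1, again with no chaperone among them. Chosen after their values were seen, Hsp90ab1 went most closely with its co-chaperone Stip1 (r = 0.96) and was also close to Fkbp4 (r = 0.92), and Hsph1 went most closely with Hsp90aa1 (r = 0.86). The gene most like Hspe1 was Dnajc15, a J-domain protein of mitochondrial import (r = 0.97, or 0.90 without vehicle replicate 8).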

How the data were processed

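Cecal RNA of 7 AIMD and 8 vehicle mice was sequenced from stranded poly-A libraries with 50-base single reads. The authors mapped reads to GRCm38 with STAR, counted them with featureCounts and GENCODE genes, and deposited FPKM per gene and mouse. Tool versions and the treatment of reads that map to several genes are not given in the sources used here. The authors tested counts with DESeq2, in a model that also held the time of sacrifice, which the labels used here do not give. The labels name groups and replicates, and each replicate is a separate mouse. The members and gene lists were chosen with earlier results of these data known.

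Each mouse's deposited FPKM were scaled by a median-of-ratios factor (1.0101 to 1.0104, so that they were already scaled this way) and tested as log2 of the value plus 0.5. The 11971 genes that reached 0.5 FPKM in 7 or more mice were fitted with limma 3.58.1 (R 4.3.3, lmFit and eBayes with trend, two-sided, Benjamini–Hochberg, threshold 0.05). For low genes the added 0.5 makes fold changes too small. The 4 rows with a repeated gene name were left out. Whole reads were recovered for 99.8% of 24279 genes (tolerance 0.01 reads) and set the depth. With all 15 mice, ratios used exact permutation over 6435 splits, whose smallest p is 0.000155.

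All members are named, and all heat shock factors; from other lists, up to 4 called genes per direction with the smallest adjusted p, and complex partners. A gene under this rule is not reported here, and the counts include it. Alternatives were other scalings, pseudocounts, filters and tests, voom on recovered reads, the clock-gene axis, a replicate block and each mouse left out. The methods were tested on simulated data. Other steps used Python 3.11.15.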

Additional observations from a re-analysis of the deposited data

Results flagged for a closer look

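Values of a single mouse that lay far from the rest of its group, by the size of the gap against the range of the group, were looked for in each of the 10 members in either group, 20 sets of mice in all. For normally distributed values about 1 in 20 such sets is expected to hold one by chance, and 2 were found, both in vehicle mice. The gaps were taken on FPKM, not on the log2 values that were tested. Log2 values were not screened, so the 2 flags hold for FPKM only. Hspe1 of vehicle replicate 8, at 15.04 FPKM with the next vehicle mouse at 46.8, was not flagged. On the log2 scale this Hspe1 value was 3.94, with the other vehicle mice at 5.55 to 6.32. Hspb1 of the same mouse was 3.11, with the others at 0.49 to 1.83. Dnajb1 of vehicle replicate 5 was 4.28, with the others at 3.74 to 4.00.

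Hspb1 was 8.20 FPKM in vehicle replicate 8, and the next vehicle mouse had 3.09. This mouse also had the fewest reads and the highest smooth-muscle score, and its 37 reads for Hspb1 were among the highest counts. Without it the log2 fold change of Hspb1 was -0.41 in place of -0.65, and neither passed the threshold. Dnajb1 was 19.1 FPKM in vehicle replicate 5, and the next vehicle mouse had 15.7. Without this mouse the log2 fold change of Dnajb1 was 0.57 (limma adjusted p = 0.000316), and with it 0.52.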

How the results depend on the processing

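Depth limits Hspb1, with 6 to 43 reads per mouse, and Hspa1a, with 24 to 85. Outside the members it limits Hspb2, with 3 to 22. Dnajb1 was called higher in AIMD mice in 29 of 30 alternatives, and Hspa1a lower in 18 of 30. Voom on the recovered reads called both, and 2235 genes higher and 2207 lower in all. The members called higher were 2 with the clock-gene axis, centred or not (Dnajb1 and Hspd1), and 0 in mice below 0 on the axis. The members called lower were 0 without a filter, with the exact rank-sum test and in mice on either side of the axis, and 0 to 1 with a mouse left out. On the 2 sides of the axis, above and below 0, 1035 and 1343 genes were called higher in all, 848 and 1134 lower, and 14 and 15 other chaperone genes higher; above 0, 8 were lower. These subsets have fewer mice.

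Uncalled values changed sign. The log2 fold change of Hsph1 was 0.011 with the axis not centred, -0.27 to 0.10 with a mouse left out and 0.55 in mice above 0. Hsp90ab1 was 0.054 after quantile normalization, 0.0067 with the axis not centred, -0.18 to 0.063 with a mouse left out and 0.064 in mice above 0, and Hsp90aa1 was 0.16 there. With a mouse left out, the log2 ratio ranged from -0.17 to 0.025 for Hsp90aa1 to Hsp90ab1, from -0.31 to 0.018 for Hspa1b to Hspa8 and from 0.57 to 0.85 for Hspd1 to Hspe1. Where not named, the cause was not tested.

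The replicate numbers name different mice, and same-numbered mice did not deviate together (r of -0.35 to 0.43 across genes, over 0.1 in 2 of 7 pairs, and 1 AIMD mouse of 7 most like its own number). With the numbers as a replicate block, which leaves out vehicle replicate 8, 1 member was called higher and 2 lower, Hspa1a and Hspe1 (log2 -0.61, adjusted p = 0.0209); without that mouse and without the block Hspe1 had the same value and was also called. Without that mouse and without the block, Hspa1a was not called (log2 -0.40, limma adjusted p = 0.0648). The block gave Hspa1a the same value and called it (adjusted p = 0.0396). No other member's call differed with the block. The log2 ratio of Hspd1 to Hspe1 with the block was 0.85 (exact sign-flip test over the 7 pairs, adjusted p = 0.234). With so few pairs a single ratio could not pass after adjustment over the 5 ratios, so this p decides nothing.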

Other observations

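Immediate early genes, which answer stress and handling of tissue within minutes and often move with inducible heat shock genes, also went in both directions. Of 16 tested, 4 were called higher in AIMD mice and 6 lower, beside 19.4% higher and 16.6% lower of all genes tested. Fosb (log2 1.27, limma adjusted p = 0.000111), Atf3, a stress-induced repressor (log2 0.99, adjusted p = 0.000175), Klf6 and Myc were higher. Ier2 (log2 -1.05, adjusted p = 0.000348), Junb (log2 -1.09, adjusted p = 0.00323), Jun and Nr4a1 were among those that were lower. Their median log2 fold change was -0.44.

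Marker lists of other cells gave further values, to be read beside the same shares of all genes tested. Enteric neuron and glia markers were lower, 6 of 7 tested, with a median log2 fold change of -1.03. Of 12 epithelial markers tested, 3 were called higher and 1 lower, of 12 immune markers 2 higher and 1 lower, and of 9 endothelial and fibroblast markers 1 higher and 1 lower. Of 15 clock genes tested, Cry1 was higher (log2 0.99) and Npas2 lower (log2 -0.52).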
